A study of Homo sapiens with 28 samples.

Results

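The measurements concern 10 membrane transporter genes in human renal cell carcinoma xenografts that had grown on a VEGF receptor kinase inhibitor. They comprised 6 ABC drug efflux pumps (ABCB1, ABCC1, ABCC2, ABCC3, ABCC4 and ABCG2) and 4 SLCO transporters (SLCO2A1, SLCO2B1, SLCO3A1 and SLCO4A1), chosen by gene symbol out of 19775 genes that had a probe set of their own on the array. Tumours of 786-O or A498, which are established human clear cell renal carcinoma lines, were grown from cells injected under the flank skin of female athymic nude/beige mice aged 6 to 8 weeks. Sorafenib (80 mg/kg) or sunitinib (53.6 mg/kg) was given by gavage 6 days weekly, starting once a tumour measured 12 mm. Tumours were removed at 12 mm before treatment or at the 20 mm size limit, and the labels call the treated ones resistant. The 28 arrays, 1 for each tumour, formed 3 arms, each with its own untreated tumours. The 786-O sorafenib arm had 5 untreated and 5 resistant tumours, the 786-O sunitinib arm 5 untreated and 4 resistant, and the A498 sorafenib arm 4 untreated and 5 resistant. All groups share the immunodeficient host and the subcutaneous site, so a human tumour cell population lay within mouse vessels and stroma, and RNA was taken from the whole frozen tumour. Fewer cells of a type and less RNA per cell therefore cannot be told apart. Size and time on drug differ together between untreated and resistant tumours and cannot be told apart from resistance.

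ABC pumps use the energy of ATP to move substrates out of cells. ABCB1 encodes P-glycoprotein, which exports a broad range of uncharged and cationic drugs and lies in the apical membrane of the kidney's proximal tubule, the segment that clear cell carcinoma resembles. ABCC1 to ABCC4 encode multidrug resistance proteins that export organic anions and drug conjugates, and ABCG2 encodes the breast cancer resistance protein. SLCO genes encode organic anion transporting polypeptides, which mostly carry hormones, bile acids, prostaglandins and drugs into cells. Messenger RNA was measured here, and neither protein nor transport was.

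In tumours that had grown on drug, ABCB1 was lower than in untreated tumours in all 3 arms, to 0.530 of the untreated level in the 786-O sorafenib arm, 0.589 in the 786-O sunitinib arm and 0.355 in the A498 sorafenib arm. SLCO4A1 was 8.28-fold higher in the 786-O sorafenib arm and 2.23-fold higher in the A498 arm. ABCC4 was lower in the 786-O sorafenib arm and SLCO2B1 was lower in the A498 arm. ABCC1, ABCC2, ABCC3, ABCG2, SLCO2A1 and SLCO3A1 passed the test in none of the arms, as did 78.3% of all genes tested. Before treatment, the lines themselves differed in 8 of the 10 genes, where 58% of all genes tested were called.

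Values are the signals deposited for Affymetrix HG-U133 Plus 2.0 arrays, in arbitrary units, scaled by the authors to a common array mean. Differences and folds were computed from log2(signal + 16), which understates the change of dim genes, for the brightest probe set of each gene. A gene was called changed at a Benjamini-Hochberg adjusted p under 0.05 in a limma fit to all 28 arrays and the 13808 genes that exceeded a signal of 89.4, the median of all values, on at least 4 arrays. All 10 transporters entered that fit, but ABCC2 did so only through A498 tumours, and ABCG2 mainly so. The median signal of an array lay between 79.7 and 99.4, and tumours of the same group correlated at 0.949 to 0.971 over all probe sets. The labels do not say whether tumours of a group came from separate mice, and p-values reflect only the spread among these samples, which may be technical. Of the 10 measured marker genes of renal carcinoma and proximal tubule, all 10 entered the fit, although 1 to 3 of them had a mean below the limit in a given group, and their summed signal was between 55324 and 89498 on every array. Bright genes weigh most in that sum. For example, VIM and KRT18 had mean log2 values of 15.0 and 12.8 in untreated 786-O of the sunitinib arm. In untreated A498 these were 14.5 and 14.6. Of the 10 markers, 3, 1 and 1 were called in the 786-O sorafenib, 786-O sunitinib and A498 arms, and 9 between the untreated lines. Of all tested genes, 15.2%, 5.06%, 6.34% and 58% were called in the same order. The difference between 3-prime and 5-prime ACTB probe sets, a sign of RNA breakdown, was highest in untreated replicate 5 (1.03) and resistant replicate 4 (0.67) of the 786-O sorafenib arm and at most 0.54 on the other arrays. Sample names of the 786-O sorafenib arm start with 33 and those of the other arms with 35, so any difference that these numbers stand for cannot be told apart from the arm when arms are compared. On human probes, mouse RNA can bind to an unknown degree.

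The start regions of the 2 pumps that fell in 786-O tumours on sorafenib are shown because they are quite unlike in base composition. They are the 250 bases before the RefSeq start sites on GRCh38.p14, written 5′ to 3′ on the gene's strand, with matches to the searched motifs in capitals. The ABCB1 window at chr7:87600885-87601134, on the minus strand, has a GC content of 55.6%, and the ABCC4 window at chr13:95301452-95301701, also on the minus strand, has 80.4%.
ABCB1: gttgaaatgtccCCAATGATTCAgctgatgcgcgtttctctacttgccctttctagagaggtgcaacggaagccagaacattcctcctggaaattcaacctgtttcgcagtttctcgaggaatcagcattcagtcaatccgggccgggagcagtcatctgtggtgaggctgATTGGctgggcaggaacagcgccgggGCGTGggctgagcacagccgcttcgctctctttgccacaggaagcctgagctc
ABCC4: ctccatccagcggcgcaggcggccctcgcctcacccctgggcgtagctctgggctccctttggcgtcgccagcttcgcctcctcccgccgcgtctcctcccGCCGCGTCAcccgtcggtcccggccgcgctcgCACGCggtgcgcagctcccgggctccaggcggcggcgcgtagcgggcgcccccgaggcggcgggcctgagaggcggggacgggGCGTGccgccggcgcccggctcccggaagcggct
Both strands were searched for 6 motifs. These were CCAAT (in 32% of 35116 promoter windows of the same length), the hypoxia element cores ACGTG (18.5%) and GCGTG (32.2%), the AP-1 site TGANTCA (6.57%), the antioxidant element core TGACNNNGC (10.9%) and the GC box GGGCGG (42.6%). The ABCB1 window held CCAAT matches that begin 238 and 79 bases before the start, an AP-1 match at 234 that overlaps the first of them, and a GCGTG match at 53. The ABCC4 window held GCGTG matches at 117 and 34 bases and a TGACNNNGC match at 149. The second ABCB1 window, at chr7:87713296-87713545, and the ABCC2 window held no match. RefSeq windows were matched for 6 of the 10 genes, 13 windows in all. A match is a run of letters and was not tested as a binding site.

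ABCB1 had signals of 1055, 1075, 1484, 1098 and 1214 in the untreated tumours of the 786-O sorafenib arm. The resistant tumours of that arm had 632, 561, 772, 552 and 587. Every resistant tumour lay below every untreated one. The means were 1185 ± 178 (SD, n = 5) and 621 ± 90.3 (SD, n = 5), and ABCB1 fell by 0.92 ± 0.17 (SE) on the log2 scale (limma, adjusted p = 4.1e-04). In the sunitinib arm of the same line, untreated tumours had 1535, 1722, 1239, 1338 and 1379. The 4 tumours resistant to sunitinib had 1050.2, 1134, 729 and 564, again with no overlap. Their mean was 869 ± 268 (SD, n = 4) against 1443 ± 189 (SD, n = 5), and ABCB1 fell by 0.76 ± 0.18 (SE; limma, adjusted p = 0.0124). The call in this arm was lost without the third resistant tumour (adjusted p = 0.0554) or without the fourth (0.0672), while the difference stayed negative at -0.70 and -0.58.

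ABCB1 was brighter in untreated A498 tumours than in 786-O, and it fell in A498 too. The untreated A498 tumours had 3828, 3130, 2824 and 3416, with a mean of 3299 ± 427 (SD, n = 4). The sorafenib-resistant ones had 1505, 904, 941, 1180.0 and 1354, with a mean of 1177 ± 259 (SD, n = 5). The lowest untreated tumour was thus above the highest resistant one, and ABCB1 fell by 1.49 ± 0.18 (SE; limma, adjusted p = 1.79e-05). In order of level, untreated A498 stood apart above all other groups. Below it came untreated 786-O of both arms, resistant A498 and then resistant 786-O of the sunitinib and sorafenib arms, each overlapping with its neighbour. Of the 13808 genes tested, 35 (0.253%) were lower and called in all 3 arms, and ABCB1 was one of them.

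Another probe set for ABCB1, 243951_at, gave the same direction in every arm, with differences of -1.14 ± 0.20, -1.05 ± 0.21 and -1.17 ± 0.21 (SE) in the order above. All were called in a limma fit over 26924 probe sets, in which 12%, 3.39% and 4.41% of all probe sets were called. In the brightest probe set, 209993_at, the sorafenib change in A498 minus that in 786-O was -0.58 ± 0.24, which was not called (limma, adjusted p = 0.172). In the other probe set, it was -0.04 ± 0.29. A further probe set that matches both ABCB4, a phosphatidylcholine exporter closely related in sequence, and ABCB1 was not tested. Its mean was 919 ± 95.9 (SD, n = 5) untreated and 434 ± 61.5 (SD, n = 5) resistant in the 786-O sorafenib arm. In the sunitinib arm it was 1277 ± 259 (SD, n = 5) and 691 ± 247 (SD, n = 4), and in A498 2972 ± 281 (SD, n = 4) and 1433 ± 246 (SD, n = 5). Signal from one of these genes on probes for the other cannot be told apart here.

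**Figure D1:**
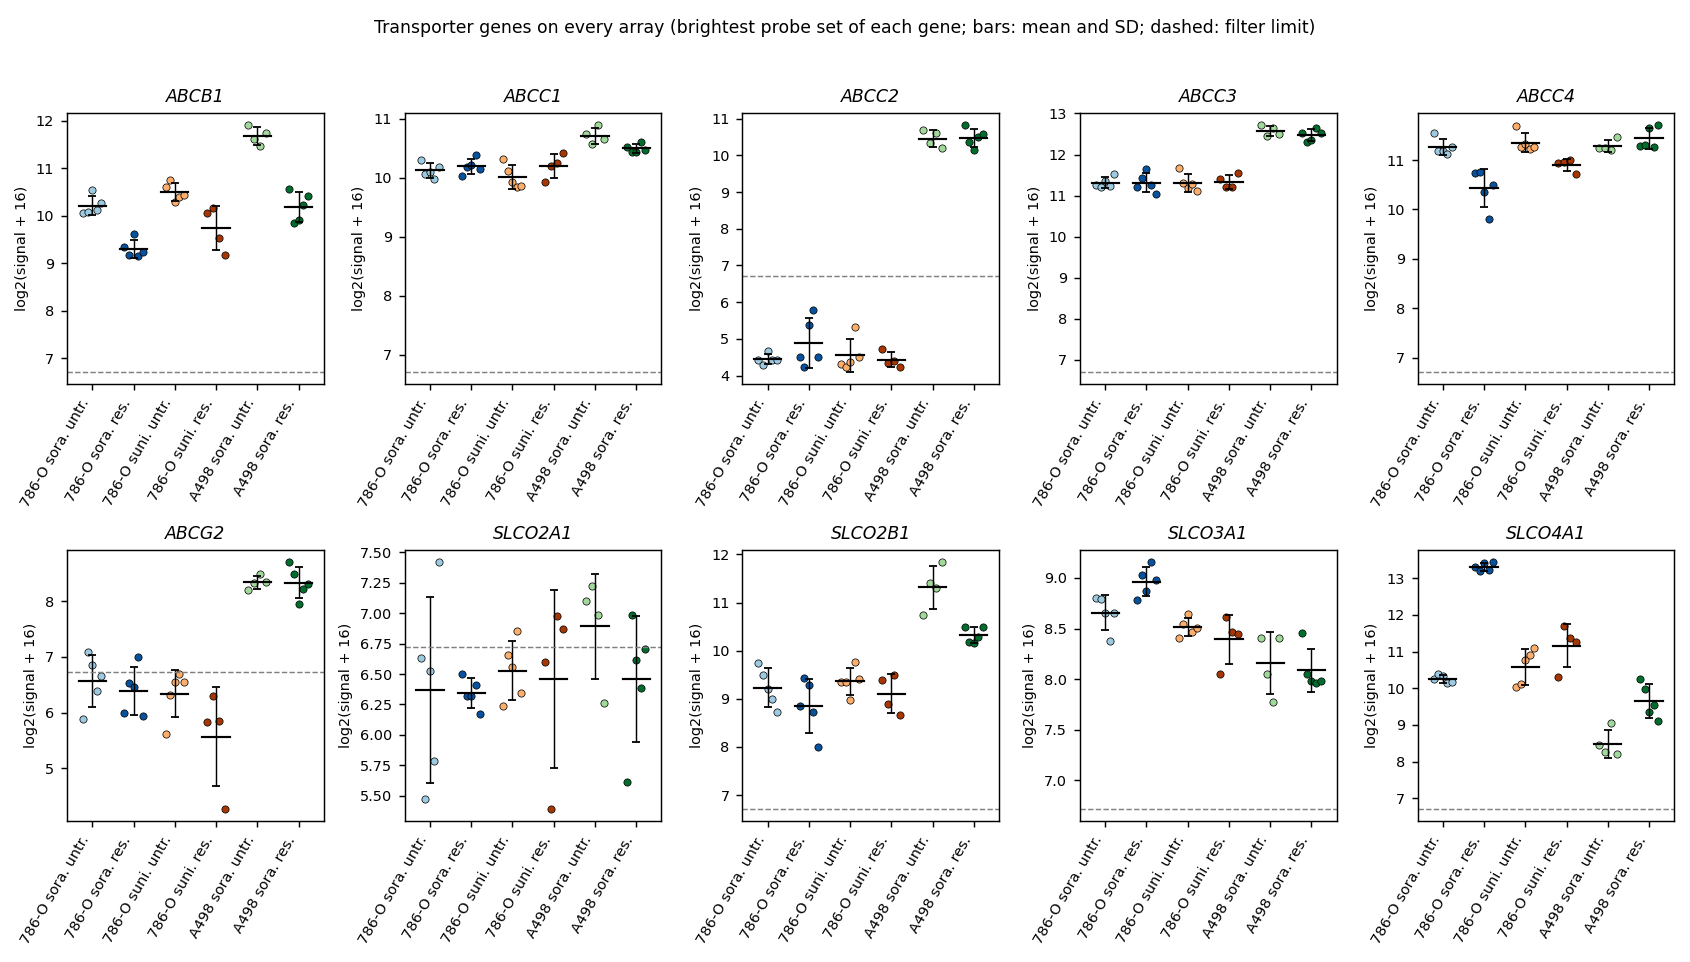
Signals of the 10 transporter genes on all 28 arrays, as log2(signal + 16) of the brightest probe set (vertical axis, separate range for each gene), for the untreated (untr.) and resistant (res.) tumours of each arm. Points are tumours, bars are the mean and SD of each group, and the dashed line is the limit of the filter at a log2 value of 6.72; ABCB1 points of resistant tumours lie below those of untreated tumours in each arm, and ABCC2 lies below the limit in every 786-O tumour.

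ABCC4 exports cyclic nucleotides, prostaglandins and conjugates. The untreated 786-O tumours of the sorafenib arm had 2969, 2302, 2323, 2215 and 2447. The resistant tumours had 1690.5, 1707, 1298, 881 and 1426. The groups did not overlap, the means were 2451 ± 301 and 1400.5 ± 339 (SD, n = 5 each), and ABCC4 fell by 0.83 ± 0.14 (SE; limma, adjusted p = 2.17e-04). In the sunitinib arm, untreated signals were 3304, 2444, 2546, 2376 and 2432, and those of resistant tumours were 1942, 1976, 2034 and 1679. These groups did not overlap either, but the difference of -0.45 ± 0.15 (SE) was not called (limma, adjusted p = 0.0902), while without the 2 arrays of highest ACTB difference, which belong to the other arm, it was (adjusted p = 0.0346). In A498, untreated tumours had 2403, 2406, 2341 and 2830.2 and resistant ones had 2485, 2504, 3179, 2440.4 and 3319. These overlapped, and the difference was 0.15 ± 0.15 (limma, adjusted p = 0.625).

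The change of ABCC4 under sorafenib differed between the lines, by 0.98 ± 0.21 for A498 minus 786-O (limma, adjusted p = 0.00746). The difference between the sorafenib and sunitinib changes in 786-O was -0.38 ± 0.21 and was not called (adjusted p = 0.410). Of the other ABCC4 probe sets, 1555039_a_at fell by 0.67 ± 0.19 in the 786-O sorafenib arm and 1554918_a_at differed there by -0.30 ± 0.17 without a call (limma, adjusted p = 0.0234 and 0.288). Neither probe set differed by more than 0.07 in the sunitinib arm. The line difference in ABCC4 was not called when the gene's probe sets were averaged (0.50, adjusted p = 0.154). The fall in the 786-O sorafenib arm was then -0.40 (adjusted p = 0.0487). That average included 243928_s_at, which was below the limit on every array.

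The other pumps of the ABCC family and ABCG2 had overlapping groups in every arm. ABCC1, which exports glutathione conjugates, had differences between -0.22 ± 0.11 in A498 and 0.19 ± 0.11 in the sunitinib arm. Its 95% interval spanned -0.14 to 0.28 in the 786-O sorafenib arm. ABCC3, a basolateral exporter of glucuronides, differed by 0.00 ± 0.12, 0.03 ± 0.12 and -0.10 ± 0.12 in the 786-O sorafenib, 786-O sunitinib and A498 arms. Its intervals kept within -0.35 and 0.28, which are narrower than those of the dim genes described next.

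ABCC2, an apical exporter of conjugates, was below the limit on all 19 arrays of 786-O tumours, where signals ran from 2.68 to 39.6. In A498 it was bright, at 1624, 1264, 1545 and 1149 untreated and 1788, 1289, 1111, 1423 and 1510.2 resistant, and these groups overlapped with a difference of 0.03 ± 0.25. ABCG2 was dim in 786-O, where 3 of 19 tumours exceeded the limit. Its untreated sunitinib-arm tumours had 33.0, 64, 77.5, 86.8 and 77.1 and the resistant ones 40.9, 62.8, 41.9 and 3.38, a difference of -0.78 ± 0.31 that was not called (limma, adjusted p = 0.154). In A498, ABCG2 had 278, 304, 341 and 310.1 untreated and 399, 344, 232, 282 and 301 resistant, with a difference of 0.00 ± 0.31 and an interval of -0.64 to 0.63. Changes of that size in ABCG2 were not resolved.

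SLCO4A1 encodes a carrier of thyroid hormones and prostaglandins. The 5 untreated 786-O tumours of the sorafenib arm had signals of 1203, 1335, 1278, 1109 and 1144. The 5 resistant ones had 10072, 9357, 10881, 9502 and 11036. The groups lay far apart, with means of 1214 ± 93.1 and 10169.6 ± 770.0 (SD, n = 5 each), and SLCO4A1 rose by 3.05 ± 0.24 (SE; limma, adjusted p = 6.52e-09). In the sunitinib arm, untreated tumours had 1031, 1093, 1739, 1892 and 2191 and resistant tumours had 1262, 3297, 2641 and 2421. These groups overlapped through the first resistant tumour, and the difference of 0.57 ± 0.25 was not called (limma, adjusted p = 0.207), although without that tumour it was 0.85 and was called (adjusted p = 0.0397).

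In A498 tumours, SLCO4A1 had 332, 290.0, 513 and 282 untreated and 1213, 988, 634, 729 and 538 after sorafenib. Every resistant tumour was above every untreated one, and the rise was 1.15 ± 0.25 (SE; limma, adjusted p = 0.00706). The rise in 786-O on sorafenib exceeded the change on sunitinib by 2.48 ± 0.35 (adjusted p = 4.03e-04) and the rise in A498 by 1.90 ± 0.35, which as A498 minus 786-O is -1.90 (adjusted p = 0.00219). Resistant 786-O of the sorafenib arm stood apart above all other groups and untreated A498 below them, and each neighbouring pair between these overlapped, down to resistant A498. The values rest on 1 probe set, 219911_s_at, because the other, 229239_x_at, was below the limit. When both were averaged, the rise in A498 was no longer called (0.43, adjusted p = 0.288). The rise in 786-O on sorafenib was then 1.58 and still called. Its excess over the sunitinib change was 1.25 (adjusted p = 0.0477), and the A498 change minus the 786-O change was -1.16 (adjusted p = 0.0271).

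SLCO2B1 carries steroid sulfates and several drugs into cells. In A498, untreated tumours had 1707, 2687, 2511 and 3638 and resistant tumours 1418, 1153, 1130.5, 1240 and 1435. The groups did not overlap, with means of 2636 ± 793 (SD, n = 4) and 1275 ± 144 (SD, n = 5), and SLCO2B1 fell by 1.00 ± 0.25 (SE; limma, adjusted p = 0.0186). The call was lost without the fourth untreated tumour, the brightest (-0.82, adjusted p = 0.0825). Its other probe sets differed by -1.12 ± 0.25 (211557_x_at, adjusted p = 0.0108, called) and -1.19 ± 0.36 (203472_s_at, adjusted p = 0.0570, not called). In 786-O, differences of -0.38 ± 0.24 on sorafenib and -0.26 ± 0.25 on sunitinib were not called, and the line difference of -0.62 ± 0.35 was not either (limma, adjusted p = 0.323).

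SLCO3A1, a widely expressed carrier of prostaglandins and thyroxine, had 429, 428, 388, 317 and 386 in untreated and 425, 507, 452, 554 and 489 in resistant 786-O tumours of the sorafenib arm. The groups overlapped, and the difference of 0.31 ± 0.13 (SE) was not called (limma, adjusted p = 0.105). Centring each array on its median, in place of the deposited scaling, gave 0.40 and a call (adjusted p = 0.0358). SLCO2A1, the prostaglandin uptake carrier, exceeded the limit on 8 of 28 arrays, and its groups overlapped in every arm. Its difference in A498 was -0.43 ± 0.33, with an interval of -1.11 to 0.25, so a fall or a small rise could not be resolved at this brightness.

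**Figure D2:**
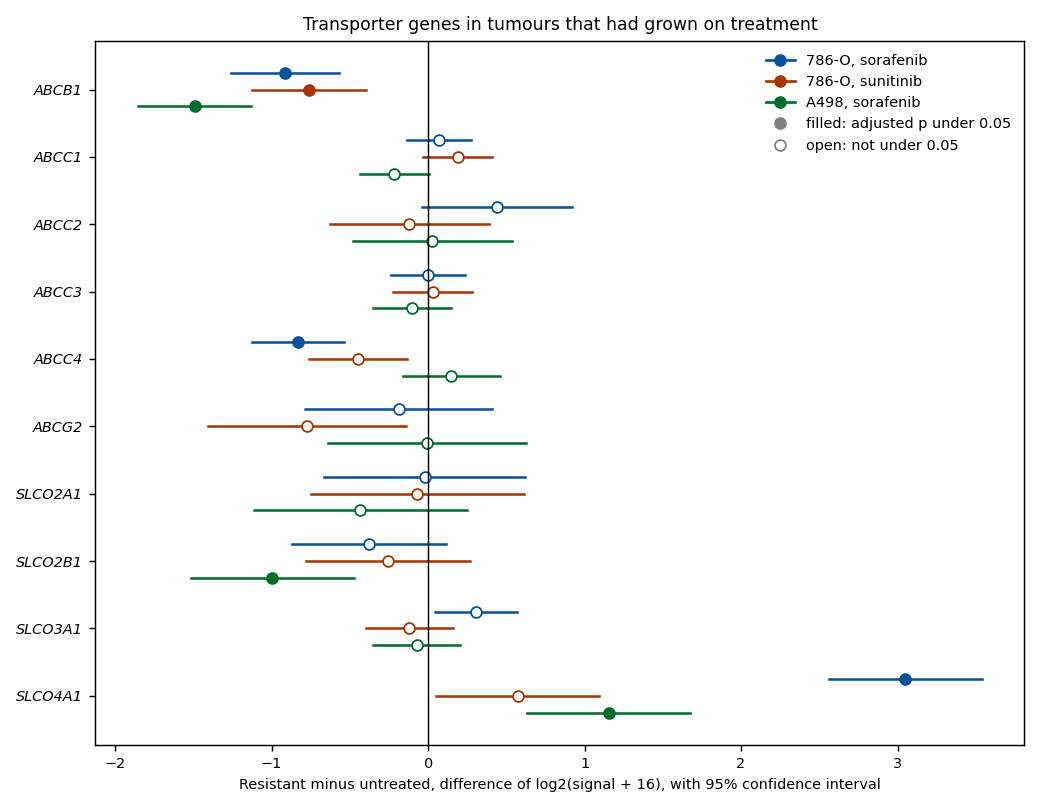
Difference between resistant and untreated tumours in log2(signal + 16), with the 95% confidence interval from limma, for each transporter gene (rows) in each arm (colours); filled points passed an adjusted p under 0.05. ABCB1 lies below 0 in all 3 arms, and SLCO4A1 in the 786-O sorafenib arm lies at 3.05, far from its values of 0.57 and 1.15 in the other arms.

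Counted by arm, 3 of 10 genes were called in the 786-O sorafenib arm (ABCB1 and ABCC4 lower, SLCO4A1 higher), where 15.2% of all tested genes were, 5.97% higher and 9.18% lower. On sunitinib 1 of 10 was called, lower, against 5.06% of all (2.22% higher and 2.84% lower). In A498, 3 of 10 were called, 1 higher and 2 lower, against 6.34% (2.93% higher and 3.4% lower). Groups did not overlap for 3, 2 and 3 of the genes, against 12.5%, 8.46% and 9.14% of all tested genes. The median difference over the 10 genes was -0.01, -0.12 and -0.09 in the same order, beside -0.05, -0.01 and 0.03 over all tested genes. The calls lay in 4 of the genes and ran in both directions. Under the comparison of the changes on sorafenib and sunitinib in 786-O, 1 of 10 genes was called (SLCO4A1), against 0.949% of all. Under that of the sorafenib changes in the lines, 2 of 10 were (ABCC4 and SLCO4A1), against 5.19%. Between the untreated 786-O tumours of the sorafenib and sunitinib arms, limma called 0 of 10, with 0 at an unadjusted p under 0.05, against 0.275% of all, and 0 had groups that did not overlap, against 2.77%. These counts rest on the brightest probe sets. ABCC4 probe sets 1554918_a_at and 1555039_a_at had mean log2 values of 9.16 and 8.17 in the sorafenib arm's untreated tumours. In those of the sunitinib arm they were 9.64 and 8.69, and the groups overlapped.

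The direction of calls over all genes depended on the scaling. In the 786-O sorafenib arm 825 genes were higher and 1267 lower as deposited, and 1195 and 727 when each array was centred on its median. On sunitinib these were 306 and 392 against 357 and 256, and in A498 405 and 470 against 172 and 801. For the changes on sorafenib and sunitinib in 786-O, the split was 61 and 70 against 64 and 36, for the sorafenib changes in the lines 417 and 299 against 190 and 713, and for the untreated 786-O arms 29 and 9 against 11 and 21. Centring moved the median difference of all genes from 0.07 to -0.12 in the comparison of lines under sorafenib and by less in the others. ABCB1, ABCC4, SLCO2B1 and SLCO4A1 kept their calls and directions under centring, and SLCO3A1 gained one, as given above. Without the 2 arrays of highest ACTB difference, 1233 genes were called in the 786-O sorafenib arm in place of 2092.

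**Figure D3:**
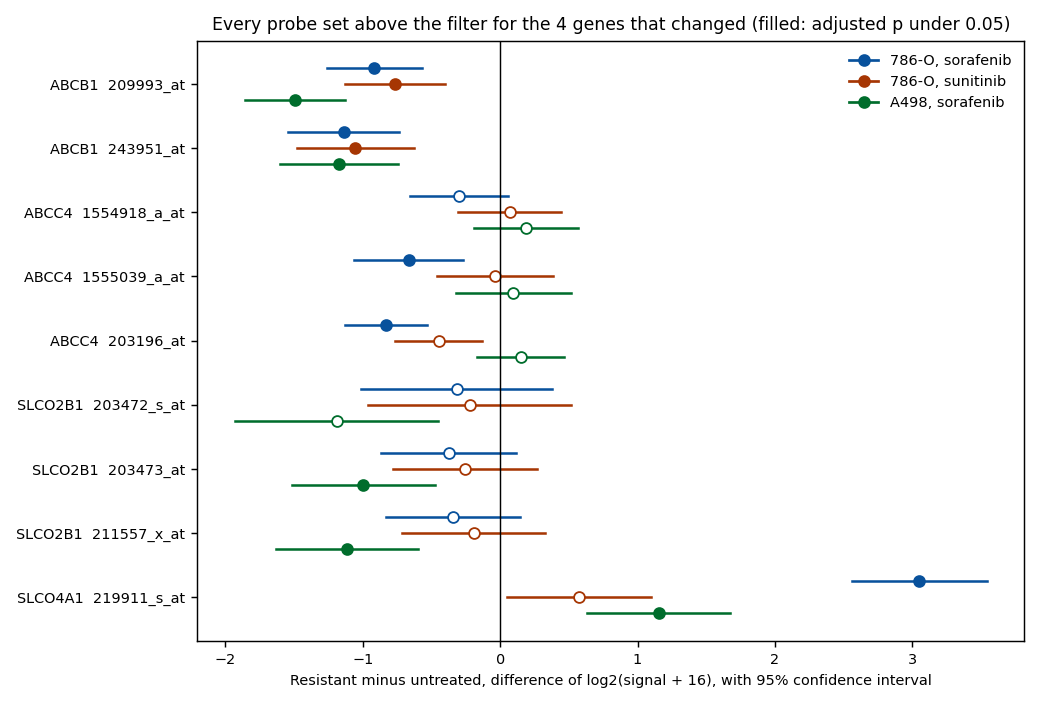
Difference between resistant and untreated tumours in log2(signal + 16), with 95% confidence intervals, for each probe set above the filter limit of the 4 genes that changed (rows), by arm (colours); filled points passed an adjusted p under 0.05 over 26924 probe sets. The ABCB1 probe sets lie at -0.76 to -1.49 in every arm, whereas the ABCC4 probe sets range from -0.83 to -0.30 in the 786-O sorafenib arm.

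Markers of host and stromal cells moved in some arms. In the 786-O sorafenib arm, 5 of 8 tested fibroblast and pericyte markers fell, against 9.18% of all tested genes. Among them were COL1A1, COL1A2, COL3A1 and RGS5. The summed signal of all 10 markers in this arm went from 7548 to 10959 in untreated tumours to 2872 to 4860 in resistant ones. This arm is also the one in which ABCC4 fell and SLCO4A1 rose most, but a link between these markers and the transporters was not tested. On sunitinib 1 of 8 fell, against 2.84% of all tested genes, and the sums of 4148 to 8628 untreated and 3355 to 7474 resistant overlapped. In A498 limma called 0 of 8, with 2 at an unadjusted p under 0.05, and the sums were 7242 to 16626 and 10813 to 24873. COL1A1 weighs heavily in these A498 sums. Before treatment, its mean log2 value was 13.2 in A498 and 8.18 in 786-O of the sunitinib arm. COL1A2, COL3A1 and RGS5 went the other way, at -1.72, -2.30 and -0.97 for A498 minus 786-O. Which cells made COL1A1 was not tested.

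Endothelial cells are a known site of ABCB1 and SLCO2A1, and macrophages of SLCO2B1. Of 10 endothelial markers, CDH5, KDR, VWF, TEK, EMCN, ERG, ESAM and CLDN5 were below the limit. The summed signal of all 10 was 452 to 597 untreated and 230 to 527 resistant in the 786-O sorafenib arm, 312 to 487 and 260 to 374 in the sunitinib arm, and 284 to 328 and 259 to 471 in A498. Only TIE1 was called in any arm, lower in the resistant tumours of the 786-O sorafenib arm, all 5 of which were below the limit. Of 11 measured macrophage markers, CD163, MRC1, C1QA, C1QC, TYROBP and PTPRC were below the limit, and the sums in A498 were 636 to 793 untreated and 519 to 1256 resistant. AIF1 alone was called, lower in the 786-O sorafenib arm, with overlapping groups. Among 4 tested muscle markers only DES was called in that arm, lower. All 4 were there at an unadjusted p under 0.05 (limma), with a median difference of -0.86. The summed signal of all 7 muscle markers was 459 to 1560 untreated and 367 to 584 resistant. By contrast, 0 of 2 skin and adipose markers and 0 of 1 red cell marker were called in any arm. In limma, 1 of these was under an unadjusted p of 0.05, in the sunitinib arm. None of these markers was listed at exactly 0, and their part in the transporter differences was not tested.

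The untreated tumours showed how the lines differ in these genes. A498 was compared with the 786-O tumours of the sunitinib arm, whose sample names start with the same number, and these untreated tumours also serve as controls of the sunitinib and A498 arms. Here 8 of 10 genes were called, against 58% of all tested genes, 6 of them higher (27.3% of all) and 2 lower (30.6%), and 7 did not overlap, against 47.4%. Higher in A498 were SLCO2B1 by 1.96 ± 0.25 on the log2 scale, ABCC3 by 1.26 ± 0.12, ABCB1 by 1.19 ± 0.18 and ABCC1 by 0.70 ± 0.11 (SE; limma, adjusted p at most 3.5e-06). ABCC2 and ABCG2 were higher too, but were below the limit in all 5 of these 786-O tumours, so their differences are only bounds. With each value below the limit set at the limit, ABCC2 was at least 13.3-fold and ABCG2 at least 3.07-fold higher in A498. They entered the fit through their A498 signals, and their share in this count follows in part from the filter. The fitted difference of ABCC2, 5.90 with a pseudocount of 16, was 7.57 with 1 and 4.33 with 64. The 2 genes lower in A498 were SLCO4A1, by -2.09 ± 0.25 (adjusted p = 1.03e-07), and SLCO3A1, by -0.35 ± 0.14 (adjusted p = 0.0270).

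For ABCC2 the mean signals were 1396 ± 225 (SD, n = 4) in A498 and 8.41 ± 8.71 (SD, n = 5) in 786-O. For ABCC3 the means were 6102 ± 542 (SD, n = 4) and 2552 ± 415 (SD, n = 5). For ABCG2 they were 309 ± 25.8 (SD, n = 4) and 67.7 ± 21.0 (SD, n = 5). ABCC4, at 2495 ± 225 and 2620.3 ± 387 (SD), and SLCO2A1 were not called. The resistant tumours kept this pattern in part. Resistant A498 did not overlap with any 786-O group in ABCC1, ABCC2, ABCC3, ABCG2 or SLCO2B1, but its ABCB1 overlapped with that of untreated 786-O. The share of all tested genes that separate in this way was not computed. ABCC2 entered the fit only through A498 tumours and ABCG2 mainly so, so their separation follows in part from the filter.

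Probe sets did not all show the line differences, for which 52.9% of all probe sets were called. For ABCC3, 3 of 5 were called higher in A498, and 239217_x_at and 242553_at, at 0.16 ± 0.21 and 0.39 ± 0.44, were not. With probe sets averaged, the difference was 0.77 for ABCC3, -0.54 for SLCO3A1 and -0.89 for SLCO4A1, each still called. For SLCO3A1, 3 of 4 were called lower, from -1.03 ± 0.19 to -0.35 ± 0.14. The SLCO3A1 call was lost without the third untreated 786-O tumour (adjusted p = 0.0596), the second untreated A498 tumour (0.0735) or the third (0.158). For ABCC4, 1555039_a_at was higher in A498 by 0.66 ± 0.20 (limma, adjusted p = 0.00809), unlike the brightest probe set at -0.06 ± 0.15.

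**Figure D4:**
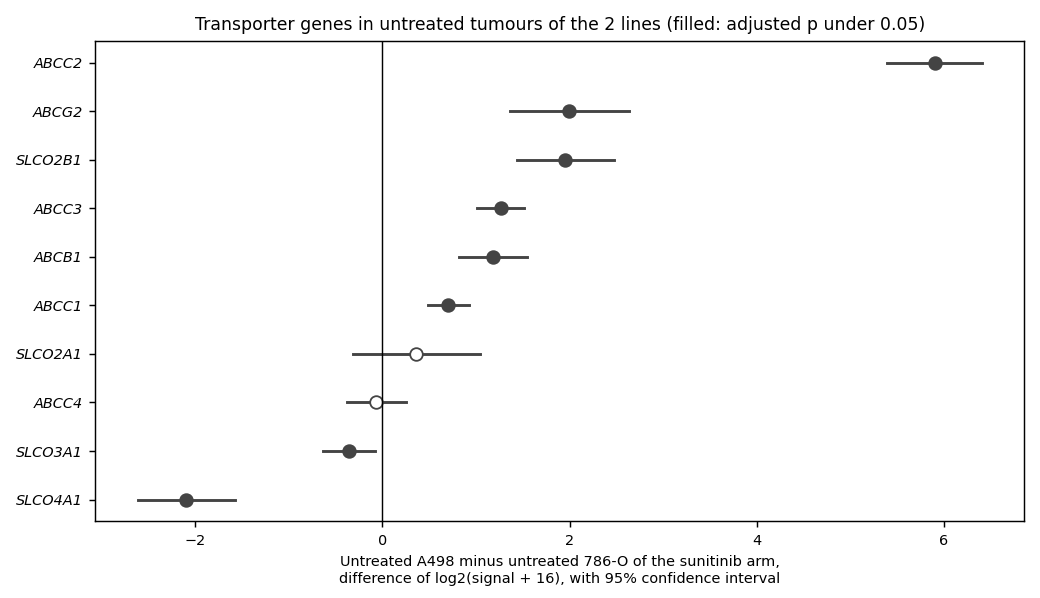
Difference between untreated A498 and untreated 786-O tumours of the sunitinib arm in log2(signal + 16), with 95% confidence intervals, for each transporter gene; filled points passed an adjusted p under 0.05. Values lie at -2.09 for SLCO4A1 and 1.96 for SLCO2B1, the open points are ABCC4 and SLCO2A1, and those of ABCC2 and ABCG2 are set against 786-O signals below the filter limit and so are bounds.

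Other transporters and their partners were read from lists of related genes. Of 13 other ABC exporters on the array, 6 were tested. In the 786-O sorafenib arm ABCA1, a cholesterol exporter, rose by 1.09 ± 0.27 and ABCC5, an exporter of cyclic nucleotides, fell by 0.56 ± 0.12 (limma, adjusted p = 0.00765 and 0.00204). The groups overlapped for ABCC5 but not for ABCA1. In the other arms limma called 0 of 6, with 0 at an unadjusted p under 0.05. Between the untreated lines, ABCB4, below the limit in 786-O, was at least 5.30-fold higher in A498 (values below the limit set at it, here and for the bounds that follow). ABCA3 (-0.61 ± 0.19) and ABCC10 (-0.48 ± 0.18, with overlapping groups) were lower in A498. Of 7 other SLCO genes, 2 were tested. SLCO4C1, the kidney's basolateral organic anion carrier, fell by 1.93 ± 0.38 in resistant A498 (limma, adjusted p = 0.00363), although its groups overlapped. Before treatment it was at least 7.55-fold higher in A498 than in 786-O, where it was below the limit. SLCO1B3, below the limit in A498, was at least 3.46-fold higher in 786-O and was called in none of the arms.

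Of 10 tested organic ion carriers, the carnitine transporter SLC22A5 fell by 0.50 ± 0.15 in the 786-O sorafenib arm and fell by 0.84 ± 0.16 in A498 (limma, adjusted p = 0.0286 and 0.00287). On sunitinib its difference was -0.45, with no call (adjusted p = 0.112), and limma called 0 of 10 there, with 2 at an unadjusted p under 0.05. SLC22A2, the renal organic cation uptake carrier, was called lower in resistant A498 (adjusted p = 0.0239), where it was below the limit in all 5 tumours. It was above the limit in 3 of 4 untreated ones and the groups overlapped, so no bound on its fold is given. Between the lines, 6 carriers were higher in A498 and 1 was lower, where 27.3% and 30.6% of all tested genes were. The proton-coupled exporters SLC47A1 and SLC47A2, below the limit in 786-O, were at least 15.7-fold and 5.90-fold higher. These exporters may have entered the fit through their A498 signals, so their share in this count may follow in part from the filter. The others included SLC22A4 by 1.55 ± 0.20, SLC22A5 by 1.10 ± 0.16 and the nucleoside carrier SLC29A1 by 0.95 ± 0.20. SLC22A7 was called higher as well, with 2 of 5 tumours of 786-O above the limit. The peptide carrier SLC15A2 was called lower, but its mean was below the limit in both lines.

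Among 9 tested regulators and scaffolds, PDZK1, a scaffold that holds transporters at the apical membrane of the proximal tubule, fell in all 3 arms like ABCB1. Its means went from 7600 ± 853 to 1784 ± 891 (SD, n = 5 each) in the 786-O sorafenib arm. In the sunitinib arm they were 6746 ± 659.7 (SD, n = 5) and 3040 ± 808 (SD, n = 4), and in A498 they were 6275 ± 545 (SD, n = 4) and 2899 ± 1196 (SD, n = 5). The differences were -2.27 ± 0.30, -1.18 ± 0.32 and -1.21 ± 0.32 (SE; limma, adjusted p = 7.7e-06, 0.0291 and 0.0222). EZR, the membrane linker ezrin, fell by 0.50 ± 0.14 in A498, with overlapping groups. AHR and NFE2L2, which control drug metabolism and antioxidant genes, were called in none of the arms and are named for their role. Between the untreated lines, the scaffold NHERF1 (2.67 ± 0.21) and KEAP1 (0.64 ± 0.10) were higher in A498 and YBX1 (-0.63 ± 0.11) was lower.

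Since several of the transporters carry prostaglandins, genes of that pathway were listed too. PTGES, a prostaglandin E synthase, rose in 786-O on sorafenib by 1.56 ± 0.17 and on sunitinib by 1.33 ± 0.18. In A498 its difference was -0.55 with no call (limma, adjusted p = 0.0677), and the sorafenib changes of the lines differed by -2.11 ± 0.25 (adjusted p = 3.5e-05). In the 786-O sorafenib arm 4 of 11 tested genes fell, against 9.18% of all tested genes. They were PTGDS (-2.21 ± 0.39), HPGD, which breaks prostaglandins down (-1.6 ± 0.34), PTGR1 (-0.76 ± 0.15, with overlapping groups) and the receptor gene PTGER4 (-0.54 ± 0.16). PTGDS also fell by 1.49 ± 0.42 in the sunitinib arm. In A498 limma called 0 of 11, with 3 at an unadjusted p under 0.05. Between the untreated lines 4 of the 11 were higher in A498, and 5 were lower, against 27.3% and 30.6% of all tested genes. Genes below the limit in 1 line may have entered the fit through the other, so these counts may follow in part from the filter. PTGIS, below the limit in 786-O, was at least 7.86-fold higher in A498, and PTGS2 was higher with 1 of 5 tumours of 786-O above the limit. PTGS1 was lower, with 1 of 4 A498 tumours above the limit. The others that were lower were PTGDS (-4.80 ± 0.42), HPGD (-3.73 ± 0.37, with 3 of 4 A498 tumours above the limit), PTGER4 (-1.09 ± 0.17) and PTGES3 (-0.25 ± 0.09). PTGR1 and PTGES were the other higher genes, at 2.33 ± 0.16 and 0.53 ± 0.18, and the groups overlapped for PTGES.

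The genes whose signal varied most like a transporter's from tumour to tumour were found from deviations around each group's mean over 28 arrays, with 13808 genes searched, and are given as a description. Deviations on the same array share its scaling and RNA quality. For ABCB1 they were SLC18B1, LGMN and SNX29, with Pearson's r of 0.784, 0.709 and 0.708. For ABCC4 they were PROS1, CHMP2A and BBS12, at 0.786, 0.760 and 0.731. For SLCO4A1 they were MTPAP, FGF5 and PTPRH, at 0.760, 0.715 and 0.698, and for SLCO2B1 they were NRARP, SCNN1A and PPP1R11, at 0.724, 0.708 and 0.703. SEMA6D, IGF2R and ID2-AS1 came closest to ABCC1, at 0.806, 0.784 and 0.783, and BBS1, FOCAD and NUDT3 to ABCC3, at 0.752, 0.715 and 0.690. The nearest genes to ABCC2 (PKD1L2, GIMAP8 and GIMAP4), ABCG2 (IL18R1, RRAGD and BAGE2) and SLCO2A1 (NDUFB9, PUF60 and PXN), which are dim in many tumours, and to SLCO3A1 (POM121, LINC01234 and UNC45A) had r between 0.688 and 0.812. Among the 10 transporters themselves, r ran from -0.64 for ABCC2 with ABCC4 to 0.52 for ABCC1 with ABCC3. The nearest genes were picked as the highest of all genes searched, so their r cannot be set against that of these pairs.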

How the data were processed

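Whole-tumour RNA was hybridised to Affymetrix HG-U133 Plus 2.0 arrays. The deposited values are probe set signals (intensity) that the authors had scaled. Their trimmed means were alike on all arrays, from 500.06 to 500.07 in the deposited values. RMA and MAS5 are named in the submitters' processing notes, with no role or version, and no detection calls were used here. Of 54675 probe sets, 62 are controls, 41091 carry 1 gene symbol, 1801 carry several and the annotation lists none for 11721. Symbols were updated by Entrez identifier for 41037 and taken as annotated for 54.

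From these signals log2(signal + 16) was computed, the brightest probe set of each of 19775 genes was kept, and genes above the median of all values on at least 4 arrays were fitted with limma 3.58.1 in R 4.3.3, with 1 coefficient for each group, contrasts between groups and Benjamini-Hochberg adjustment over all 13808 genes. The 5967 dimmer genes were left out. The 7 comparisons were the 3 arms, the untreated lines, the untreated 786-O arms, and the differences between changes. The 10 genes, the lists of related genes and the markers were chosen with earlier results of these data known. The genes described in detail were all 10, and of the lists those called in the arms or between the lines. The genes most alike were the 3 of highest Pearson's r. Alternatives were other pseudocounts (1 and 64), filters, probe set rules, scalings, variance models, an RNA quality covariate and fewer arrays. The fit was tested on simulated data. Promoter windows were RefSeq's.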

Additional observations from a re-analysis of the deposited data

Results flagged for a closer look

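In 4 of the 60 sets formed by 1 gene in 1 group, a tumour lay far from the others by Dixon's ratio of its gap to the range, and chance alone gives about 1 in 20. ABCC4 was highest in untreated replicate 1 of the 786-O sunitinib arm (signal 3304, ratio 0.791) and in untreated replicate 4 of A498 (2830.2, ratio 0.856). SLCO3A1 was highest in resistant replicate 1 of A498 (336, ratio 0.811). ABCC2, which is below the limit there, was highest in untreated replicate 4 of the 786-O sunitinib arm (23.7, ratio 0.731).

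The test of the difference between changes was passed 3 times. SLCO4A1 rose more on sorafenib than it changed on sunitinib in 786-O, by 2.48 on the log2 scale (limma, adjusted p = 4.03e-04). The sorafenib change in A498 minus that in 786-O was -1.90 for SLCO4A1 (adjusted p = 0.00219) and 0.98 for ABCC4 (adjusted p = 0.00746).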

How the results depend on the processing

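Of 1752 values of the 10 genes under alternatives, 1730 kept direction and call or moved within the spread, 12 lost and 3 gained a call, 7 moved and 0 reversed. ABCB1 in both sorafenib arms, and ABCC4 and SLCO4A1 in the 786-O sorafenib arm, kept their calls wherever they were fitted. Calls of the 10 genes in the sunitinib arm (1) were 0 with only its arrays (ABCB1 at an adjusted p of 0.0922) and 2 without the 2 arrays of highest ACTB difference. Between changes in the lines (2), they were 1 with probe sets averaged and 1 without probe sets ending in _x_at or _s_at. Between the 786-O arms (1), they were 0 without these, since SLCO4A1 then has no probe set and was not fitted. ABCC3 between the lines was not called without probe sets of these endings (0.39; limma, adjusted p = 0.480). With only the arrays compared, SLCO4A1 in A498 (adjusted p = 0.0586) and SLCO3A1 between the lines (0.0600) were not called.

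Genes called between untreated 786-O arms (38) were 24 with a pseudocount of 1, 20 unfiltered, 17 under the 75th percentile filter, 91 with array weights, 24 with ACTB as covariate, 0 with only those arrays and 24 without the 2 arrays. Between the 786-O changes (131) they were 73 unfiltered and 51 without the 2 arrays, and between the lines' changes (716) 476 without _x_at and _s_at and 458 without the 2 arrays. In A498 (875) they were 1316 with weights and 185 with only its arrays, in the sunitinib arm (698) 259 with only its arrays, and in the 786-O sorafenib arm (2092) 1233 without the 2 arrays. Apart from the smaller number of arrays or probe sets, the cause was not tested.

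Leaving out each tumour gave 1579 to 1931 genes in the 786-O sorafenib arm, 313 to 659 on sunitinib, 467 to 1020 in A498, 7566 to 7817 between lines, 64 to 171 and 506 to 746 between changes, and 14 to 50 between untreated arms. For the 10 genes it gave 3 to 3, 0 to 2, 2 to 3, 7 to 8, 1 to 1, 2 to 2 and 0 to 0. Genes fell by over 1.5 times on sunitinib without untreated replicate 1 (442) or resistant replicate 3 (313) or 4 (396), and in A498 without untreated replicate 1 (467) or 4 (583) or resistant replicate 3 (571). No paired analysis was possible because the labels give no pairing of tumours. Replicates are numbered here by the order of the samples in each group. ABCC2 and ABCG2 in 786-O and SLCO2A1 lay near or below the limit, where small changes cannot be resolved.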
